A study of Rattus norvegicus with 21 samples.

Results

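The genes described here are the heat shock proteins and their DnaJ partners, taken as every probe whose annotated symbol starts with Hsp followed by a letter or digit, other than Hspg2, or with Dnaj. The rule found 64 probes of 62 genes among the 22523 probes and 13337 named genes of a rat Illumina expression beadchip, on which bead-bound probes report a transcript by their brightness. No detection filter was used for membership. The 21 arrays measured total RNA from the dentate gyrus of Wistar rats that had received pilocarpine, which acts on muscarinic receptors to start status epilepticus and is followed by spontaneous seizures. Recordings in the hippocampal slice had first told apart areas with fast ripples, which are brief and very fast field oscillations (FR, 10 arrays), from areas without them (nonFR, 11 arrays). All areas, nonFR included, came from pilocarpine-treated rats, and untreated rats were not analysed here. The areas came from 11 slices of 6 animals, P91 and B9 with 4 and 5 arrays, B1 and B13 with 2 each, and B3 and B10 with 4 each, and 10 slices gave both kinds of area. Sex, age, chip and the way an area was dissected are not given in the sources used here.

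Heat shock proteins keep other proteins folded. Hsp70 proteins bind unfolded stretches and release them through a cycle of ATP hydrolysis, DnaJ proteins deliver clients and start that hydrolysis, and exchange factors such as the Hsp110 proteins reopen the cycle. Hsp90 finishes the folding of kinases and receptors, small heat shock proteins hold unfolded clients without ATP, and the mitochondrial chaperonin encloses them in a chamber. Heat shock factors induce many of these genes after protein damage, and the unfolded protein response induces those of the endoplasmic reticulum. In the hippocampus, seizures are known to induce Hsp70 and Hspb1 (Hsp27), the latter largely in astrocytes.

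Motifs of these known induction routes were looked for in the promoters. In RefSeq (assembly GRCr8), 51 of the 62 genes had a promoter entry, and the 250 bases before the annotated start were searched on both strands for 3 motifs. A paired heat shock element, GAANNTTC or TTCNNGAA, lay in 14 of the 51 (27.5%) and in 13.5% of all 33469 promoters. Those 14 were Dnaja1, Dnajb1, Dnajb6, Dnajc18, Dnajc27, Dnajc5g, Hspa2, Hspa9, Hspb1, Hspb6, Hspb8, Hspd1, Hspe1 and Hsph1. The triple element, GAANNTTCNNGAA or TTCNNGAANNTTC, which contains the paired one, lay in Hspd1, Hspe1 and Hsph1 (5.88% of the 51, against 0.663% of all). The endoplasmic reticulum stress element, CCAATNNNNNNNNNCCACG or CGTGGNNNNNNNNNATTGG, lay in Dnajc3, Hsp90b1 and Hspa5 (5.88%, against 0.0657% of all). Promoters of 4 genes are shown, 5′ to 3′ in the gene's direction, with the matches in capitals: Hspb1 and Hspb8 because both were highest in the same rat, Dnajb1 as a heat-inducible gene whose level did not pass that test, and Hspa5 as the classic target of the unfolded protein response. They lie at chr12:26432302-26432551 (minus strand), chr12:45837058-45837307 (plus strand), chr19:41431142-41431391 (minus strand) and chr3:38452766-38453015 (plus strand). A match describes letters only.
Hspb1: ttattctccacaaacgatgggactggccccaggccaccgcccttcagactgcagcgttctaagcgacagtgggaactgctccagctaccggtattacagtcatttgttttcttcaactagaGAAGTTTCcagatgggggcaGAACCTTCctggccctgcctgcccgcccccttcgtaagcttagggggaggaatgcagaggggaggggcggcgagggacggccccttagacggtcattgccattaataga
Hspb8: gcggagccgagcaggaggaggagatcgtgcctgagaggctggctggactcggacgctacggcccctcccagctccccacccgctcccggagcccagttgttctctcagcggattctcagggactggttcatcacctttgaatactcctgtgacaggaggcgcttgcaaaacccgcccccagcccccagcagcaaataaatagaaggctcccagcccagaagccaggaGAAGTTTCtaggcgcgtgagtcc
Dnajb1: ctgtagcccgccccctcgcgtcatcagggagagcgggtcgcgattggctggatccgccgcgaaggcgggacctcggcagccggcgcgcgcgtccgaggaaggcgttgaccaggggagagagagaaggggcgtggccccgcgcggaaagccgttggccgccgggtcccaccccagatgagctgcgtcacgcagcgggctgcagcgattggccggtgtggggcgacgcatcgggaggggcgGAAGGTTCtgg
Hspa5: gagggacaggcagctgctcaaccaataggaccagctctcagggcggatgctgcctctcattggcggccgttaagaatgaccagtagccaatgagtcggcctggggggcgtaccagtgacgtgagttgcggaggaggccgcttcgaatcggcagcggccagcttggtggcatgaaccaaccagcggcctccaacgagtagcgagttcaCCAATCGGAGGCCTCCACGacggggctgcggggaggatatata

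Of the 62 genes, 60 had a probe with a measured value, and 42 passed the detection filter (10 or more arrays with a detection p under 0.01) and were tested among 8211 features. The detection p states how often a negative control would be as bright. Hspd1, the chaperonin itself, and Dnajc4 had only probes deposited as 0 throughout and carry no level. Of the measured genes 26 were detected on all 21 arrays and 12 on none. The 12 were Hspb3, Hspb7 and Hspb9 among the small heat shock proteins, Hspa1b, Hspa12a and Hsph1 among the Hsp70 and Hsp110 genes, and Dnajb8, Dnajb11, Dnajb12, Dnajc5g, Dnajc16 and Dnajc28. A few arrays detected Dnajb13 (9), Dnajc30 (6), Hspa4 (5), Dnajc5b (2), Dnajc8 (2) and Hsp90ab1 (2). The stress-inducible Hsp70 gene Hspa1b had signals of 23.5 to 55.0 with a median detection p of 0.709, so its probe did not rise above the negative controls on any array. No probe of the table was named Hspa1a or Hspa8, the constitutive Hsp70. Of the main cytosolic Hsp70 genes, these are thus not measured here, and Hspa1b was measured but not detected.

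**Figure D1:**
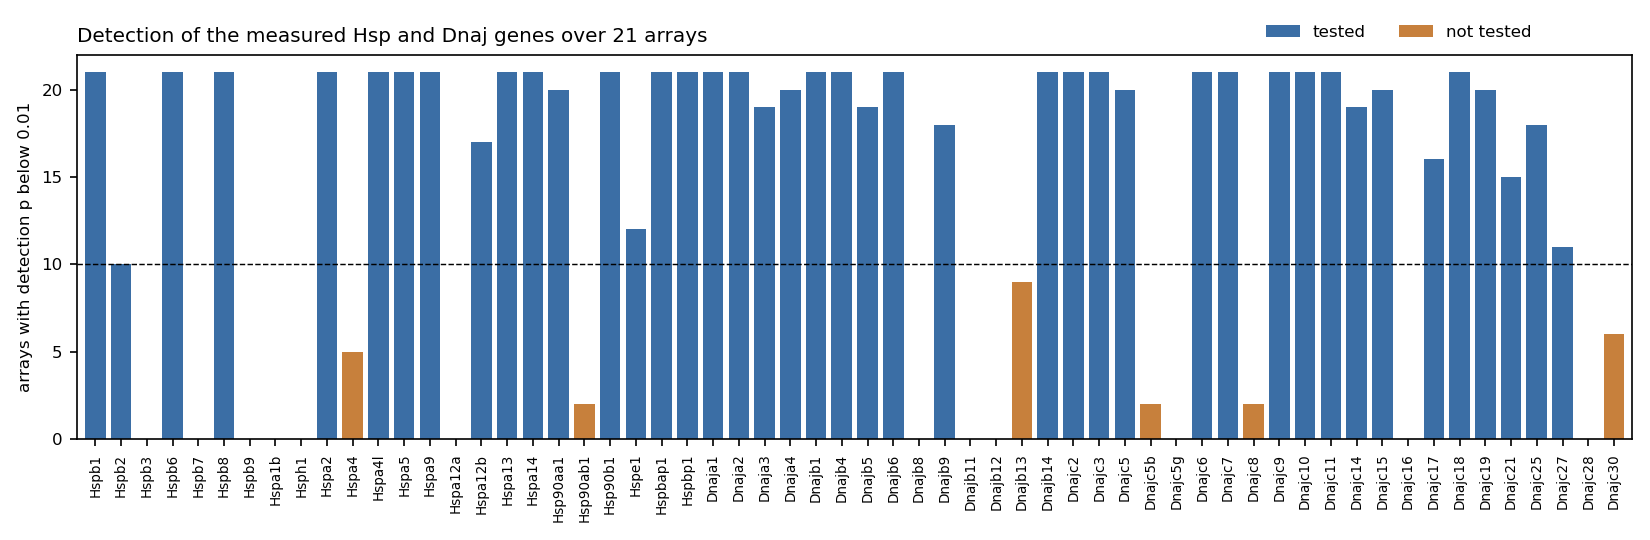
Number of the 21 arrays (vertical axis) on which each of the 60 measured genes had a detection p below 0.01, ordered by protein family, with tested genes in blue, untested genes in orange and the minimum of 10 arrays as a dashed line. The gaps without a bar are the 12 genes detected on no array, Hspa1b and Hsph1 among them.

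For 2 genes the detection p did not follow the signal. Dnajb11 (probe ILMN_1530413), an endoplasmic reticulum DnaJ protein that hands clients to Hspa5, had signals of 234 to 945 in FR areas (median 397) and 164 to 977 in nonFR areas (median 721). The signals are not normalized between arrays, so these medians do not compare the 2 kinds of area. They were far above the background mean, which the other probes put at 29.6 to 48.3 over the arrays, yet the detection p of Dnajb11 was never below 0.0628. On all 21 arrays that p departed by more than 0.01 from the p of probes of like signal, as it did for 617 of the 21803 measured probes, 43 of which were bright (median signal over 150) yet undetected (median p over 0.05). The probe of Hsp90ab1, the constitutive cytosolic Hsp90, departed likewise on 19 arrays, with signals of 31.8 to 59.1. Neither gene entered the test. Fitted without a detection filter, the FR minus nonFR difference was -0.10 ± 0.16 log2 (SE) for Dnajb11 and 0.10 ± 0.05 for Hsp90ab1, and the 18 untested genes had unadjusted p-values of 0.0867 or more.

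Mean probe signal ran from 84.2 to 369.8 over the arrays and 5648 to 9525 probes were detected, both lowest on the nonFR array of slice 2 of B10, on which 14 of the 42 tested members were not detected. Astrocyte markers (7 of 7 tested) and neuron markers (5 of 6) were well represented. Of the granule cell markers that define this tissue, 3 of 6 were tested, namely Prox1, Calb1 and C1ql2. Levels below are background-corrected, quantile-normalized log2 intensities, comparable between arrays for one probe but not between probes. Areas of one animal are not independent animals, so p-values from arrays partly measure the spread within rats.

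No Hsp or Dnaj gene differed between FR and nonFR areas beyond the spread between arrays. In limma with the animal as a block, 0 of the 42 genes passed an adjusted p of 0.05, as did 0 of all 8211 features (0%), and the lowest adjusted p was 0.999944. At an unadjusted p below 0.05 there were 0 member genes, against 46 of all features (0.56%). Of the 42 genes 22 were higher and 20 lower in FR, with a median difference of 0.0054 log2 (0.0060 over all features) and a median size of 0.083 (0.106 over all). The ranges of FR and nonFR arrays overlapped for each of the 42 (0% of all features did not overlap). For 41 of the 42 the 95% interval of the difference lay within 1 log2 unit of 0, a 2-fold change, as for 7818 of the 8211 features. The exception was Dnajc6, with an interval from -1.05 to 0.47.

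Of the 42 genes, the small heat shock protein Hspb1 showed the widest scatter between rats in that comparison. It (probe ILMN_1374332) caps actin filaments and holds unfolded proteins. Its level lay between 6.98 and 11.29 in FR areas (median 9.22) and between 8.49 and 11.01 in nonFR areas (median 9.13). The fitted difference was 0.0056 ± 0.31 log2 (SE). Within animals, however, FR minus nonFR was 1.96 in B13, 1.67 in B1, 0.47 in P91 and 0.23 in B3, and -0.79 in B9 and -1.54 in B10, an SD of 1.36 over 6 animals. The near-zero mean of Hspb1 thus joins 4 rats in which the FR area was higher and 2 in which it was lower. The lowest of all Hspb1 values was the FR area of slice 1 of B10 at 6.98, with 9.38 in the nonFR area of the same slice.

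For the other 3 small heat shock proteins the SD over the 6 animals' differences was 0.36 (Hspb2), 0.52 (Hspb8) and 0.63 (Hspb6). Hspb8, which works with Bag3 in clearing misfolded proteins by autophagy, lay at 7.34 to 10.19 in FR (median 8.20) and 7.64 to 9.50 in nonFR areas (median 8.18), a difference of 0.081 ± 0.20. Hspb6 (Hsp20), known from smooth and cardiac muscle and also expressed in brain, lay at 8.64 to 10.14 (median 9.19) and 8.83 to 9.77 (median 9.30), a difference of 0.074 ± 0.17. In B1 its FR area was higher by 1.12 log2, as it was for Hspb1. Hspb2, best known from muscle, was 0.12 ± 0.13 lower in FR (p = 0.398, unadjusted, limma).

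Among the Hsp70 and Hsp110 genes 2 of 7 were higher and 5 lower in FR, with differences from -0.15 to 0.013 log2. Hspa5 (BiP), the Hsp70 of the endoplasmic reticulum whose promoter is shown above, lay at 10.32 to 11.76 in FR (median 11.47) and 10.84 to 12.03 in nonFR areas (median 11.33). Its difference was -0.15 ± 0.16 (unadjusted p = 0.362), lower in 4 of 6 rats. The mitochondrial Hsp70, Hspa9 (mortalin), lay at 10.04 to 11.74 (median 11.52) and 9.85 to 11.98 (median 11.40), a difference of 0.011 ± 0.21. Hspa2, first known from testis, lay at 6.94 to 8.39 (median 7.98) and 5.99 to 8.72 (median 8.12), a difference of 0.013 ± 0.26. For each of the 3 the groups overlapped over most of their range. The remaining genes of the family, Hspa4l, Hspa12b, Hspa13 and Hspa14, differed by -0.055, -0.065, -0.10 and -0.067.

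The Hsp90 genes did not separate the areas either. Hsp90aa1, the stress-inducible cytosolic Hsp90, lay at 6.91 to 9.79 in FR (median 7.88) and 4.72 to 9.56 in nonFR areas (median 8.0), a difference of 0.099 ± 0.35. Its value of 4.72 came from the nonFR area of slice 3 of P91, the 1 array that did not detect it. Hsp90b1 (GRP94), its counterpart in the endoplasmic reticulum, lay at 9.07 to 10.84 (median 10.45) and 9.50 to 10.73 (median 10.39), a difference of -0.017 ± 0.22. Hspe1, the lid of the mitochondrial chaperonin, was dim, with 12 arrays detecting it, and lay at 4.45 to 5.94 (median 5.0) against 4.36 to 6.03 (median 5.19), a difference of -0.21 ± 0.19 (unadjusted p = 0.275). Hspbp1, an exchange factor of Hsp70, differed by 0.18 ± 0.23 (unadjusted p = 0.453), and Hspbap1, which binds Hspb1, by -0.16 ± 0.20.

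Of the DnaJ genes, 15 of 26 were higher and 11 lower in FR. The lowest unadjusted p of all members belonged to Dnajb6, a DnaJ protein that keeps polyglutamine proteins from aggregating. It lay at 8.05 to 9.71 in FR (median 9.09) and 8.64 to 9.65 in nonFR areas (median 9.30), a difference of -0.27 ± 0.19 (limma, unadjusted p = 0.183). It was lower in the FR area in 6 of 6 rats, with a difference of -0.021 log2 in P91 and of -0.83 to -0.17 in the others, although it was higher in 3 of the 10 slices. It was the 1 member of 42 with the same sign in 6 rats (2.38%), against 1.27% of all features, and 1 gene is too few to set against that share. The FR area of slice 3 of B9, the brightest array, was the lowest at 8.05.

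Dnaja1 and Dnaja2, farnesylated cytosolic DnaJ proteins that serve Hsp70, were among the brightest members. Dnaja1 lay at 10.18 to 11.84 in FR (median 11.60) and 10.73 to 12.20 in nonFR areas (median 11.34), a difference of -0.21 ± 0.19 (unadjusted p = 0.297), lower in 5 of 6 rats. Its median nevertheless was higher in FR, so the sign depended on the summary. Dnajb1 (Hsp40), a major heat-inducible partner of Hsp70, lay at 10.77 to 11.71 (median 11.32) and 10.64 to 12.13 (median 11.22), a difference of 0.0052 ± 0.16. Dnaja4 had the largest difference upward, 0.27 ± 0.28 (unadjusted p = 0.336), with 3 of 6 rats higher and 1.38 log2 in B10.

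The DnaJ proteins with synaptic and secretory roles gave small differences of both signs. Dnajc6 (auxilin), which uncoats clathrin vesicles in neurons, lay at 8.08 to 11.82 in FR (median 9.90) and 8.72 to 11.42 in nonFR areas (median 10.45), the largest difference downward at -0.29 ± 0.36. Most of it came from B1 (-1.72) and B10 (-0.98), while P91 and B13 were near 0 and B9 was higher in FR (0.38). The B10 value joins slices of opposite sign, 1.38 in slice 1 and -3.34 in slice 2. Over the 10 slices with both areas, Dnajc6 was higher in FR in 5. Dnajc5, the cysteine string protein of synaptic vesicles, differed by 0.056 ± 0.22. Of the endoplasmic reticulum members, Dnajb9 differed by -0.048 ± 0.26, Dnajc3 (p58IPK, an inhibitor of the kinase PERK) by 0.100 ± 0.22 and Dnajc10, which reduces disulfides, by -0.11 ± 0.22. Dnajc7, which also binds Hsp90, differed by -0.098 ± 0.17 and Dnajb5 by 0.070 ± 0.35. The members of lowest p upward were Dnajc17 (0.21 ± 0.17, unadjusted p = 0.247, limma), Dnajc27 (0.15 ± 0.14, p = 0.270), Dnaja4, Hspbp1 and Dnajc15 (0.15 ± 0.20, p = 0.462), and downward Dnajb6, Hspe1, Dnaja1, Hspa5 and Hspb2.

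**Figure D2:**
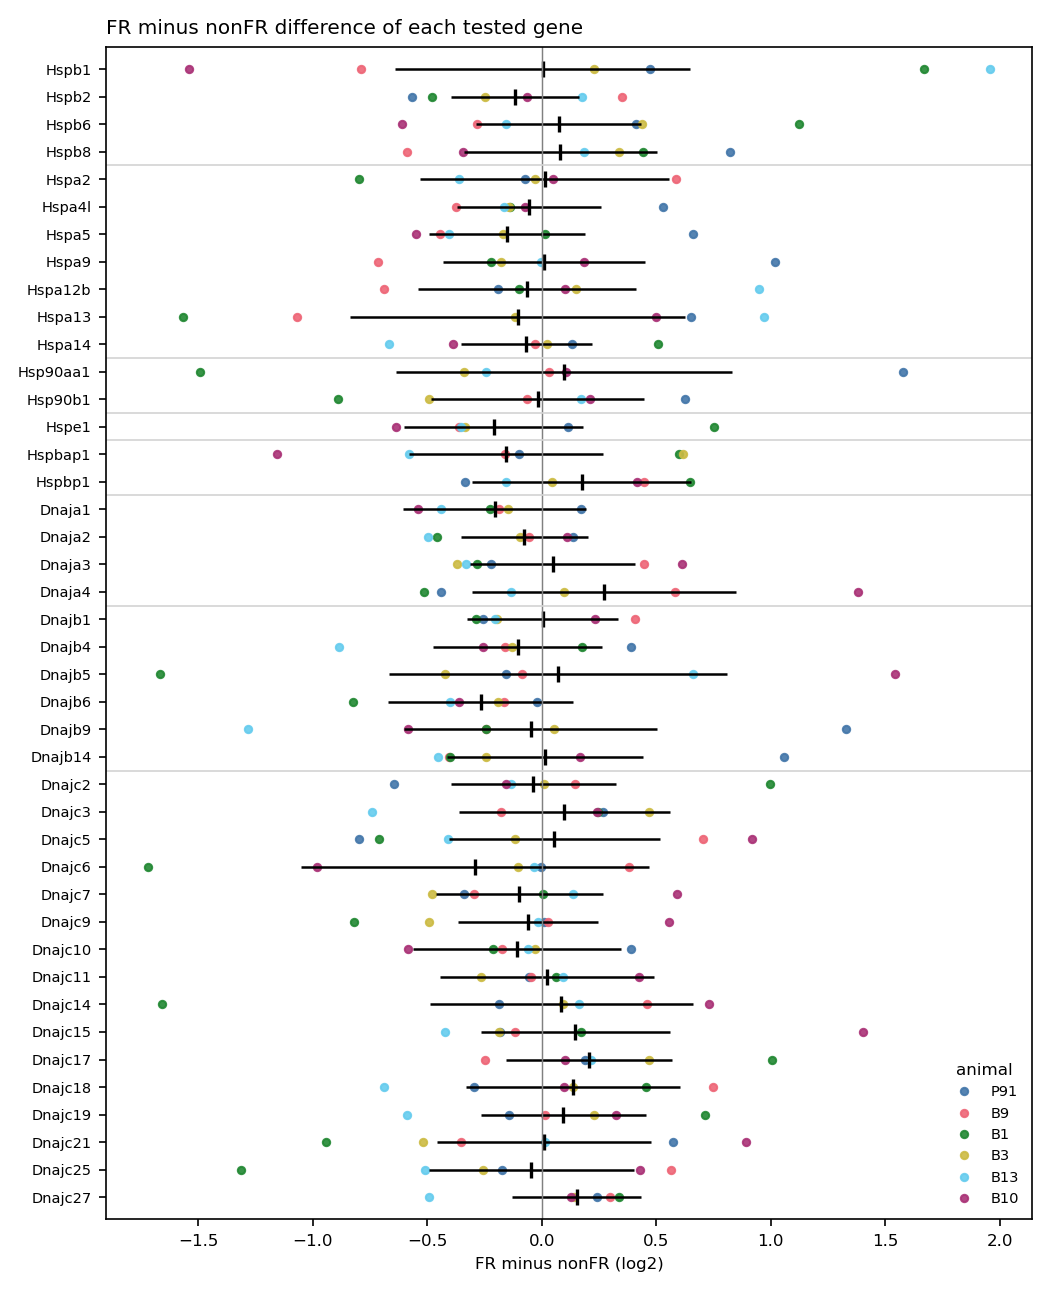
FR minus nonFR difference in log2 units (horizontal axis) for the 42 tested genes, with the limma estimate as a black tick, its 95% interval as a line and the 6 animals as coloured dots, ordered by protein family. Each interval crosses 0, and the dots of Hspb1 reach from -1.54 to 1.96.

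Rat by rat, the members leaned different ways. The median difference over the 42 genes was -0.22 log2 in B1, -0.18 in B13, -0.12 in B3 and -0.10 in B9, and 0.062 in P91 and 0.11 in B10. All features had medians of -0.028, -0.018, -0.010, 0.0037, -0.022 and 0.053 in the same order. The SD over the 6 animals' differences had a median of 0.51 log2 for the members and 0.50 for all features. B1, with 1 slice, gave the largest absolute difference for 16 of the 42 members and 35.4% of all features. B13, the other rat with 1 slice, did so for 7 members and 28.5% of all features. The counts of members were 9 in B10 (17.0% of all features), 8 in P91 (13.7%), 2 in B9 (3.36%) and 0 in B3 (2.17%).

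Some members differed between rats. A moderated F test of the 6 animals, with the kind of area as a term, gave an adjusted p below 0.05 for 7 of the 42 members (16.7%), against 1544 of 8211 features (18.8%), a share near the background. The 7 were the small heat shock proteins Hspb2, Hspb8 and Hspb1, then Dnajc21, Dnaja2, Dnajc17 and Hsp90aa1. With both areas of a slice averaged into 1 value, 5 members passed (11.9%), against 9.27% of all features, namely Hspb1, Dnajc21, Hspb2, Dnajb5 and Hspb8. None of the 7 Hsp70 and Hsp110 genes passed in either fit, but 7 genes are too few to set against those shares. Hspa12b, Hspa2 and Hspa5 passed under some alternatives. Leaving out B10 moved the count of members from 7 to 14 (2203 of 8211 features), and leaving out B1 moved it to 9 (1888 features). It was 4 when B13 (1257 features), P91 (873) or B3 (668) was dropped, and 2 when B9 was dropped (289). It was 12 without the array with the fewest detected probes (2112 features). The count of all features moved the same way from 1544 each time, so these shifts were not particular to the members. The labels give no chip, so an array batch that follows the rat cannot be told apart from the rat.

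Hspb1 and Hspb8 were highest in P91. The 4 arrays of P91 had Hspb1 at 11.21 and 11.29 in FR and at 11.01 and 10.53 in nonFR areas, a mean of 11.01. The means of the other rats were 9.97 in B1, 9.47 in B13, 9.10 in B3, 8.70 in B9 and, lowest, 8.48 in B10. The adjusted p was 0.0135 over arrays and 0.0165 over slice means. The FR area of B1 (10.81) was the 1 array of another rat within the range of P91, and that of B13 (10.45) lay just below it. The nonFR areas of these 2 rats were at 9.13 and 8.49.

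For Hspb8 the arrays of P91 lay above the rest by a narrow gap, at 8.88 to 10.19 against 7.34 to 8.82 on the other 17 arrays. The share of all features in which a rat stands apart was not counted, so this is a description only. Its animal means were 9.60 in P91, 8.58 in B13, 8.25 in B10, 7.97 in B3, 7.95 in B1 and 7.90 in B9 (adjusted p = 0.0099, and 0.0341 over slice means). Both calls rest on P91: without that rat the adjusted p was 0.359 for Hspb1 and 0.57 for Hspb8. Hspb1 also lost its call without B9 (adjusted p = 0.0643) and with no detection filter (0.0509). Hspb6 had its highest mean in P91 too, 9.67 against 9.05 to 9.57, without passing the test (adjusted p = 0.432). Bag3, the autophagy partner of Hspb8, differed between rats in another order, with 10.78 in B3, 10.63 in B13, 10.29 in P91, 9.86 in B1, 9.52 in B9 and 9.51 in B10 (adjusted p = 0.0185, but 0.136 over slice means). Cryab, the small heat shock protein not named Hsp, was at 9.69 in P91, 9.53 in B10, 9.39 in B1, 8.52 in B13, 8.38 in B9 and 8.11 in B3 (adjusted p = 0.0214, and 0.0303 over slice means).

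Hspb2 was highest in P91 and B9. Its animal means were 5.86 in P91, 5.30 in B9, 4.64 in B1, 4.62 in B3, 4.40 in B13 and 4.30 in B10 (adjusted p = 0.000876, and 0.0186 over slice means). It was dim: each of the 9 arrays of P91 and B9 detected it and 1 of the other 12 did, so the low values lie near background. The 10 arrays are the least the filter allows, so Hspb2 was tested only through the rats in which it was high, and its call is not support for a difference. Gfap, the astrocyte filament, was 1 of 7 astrocyte markers. Its means were 13.54 in P91, 13.51 in B9, 12.79 in B1, 12.03 in B3, 11.53 in B13 and 10.83 in B10. Because Hspb2 lay near background in B1, B3, B13 and B10, its order over these rats cannot be matched to that of Gfap. The mean of all 7 astrocyte markers ran otherwise than Gfap, at 10.73 in P91, 10.58 in B1, 10.41 in B3, 10.40 in B13, 10.17 in B9 and 9.81 in B10. In tissue RNA, fewer cells of a type and less RNA per cell cannot be told apart, and the part of cell makeup in these differences was not tested.

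Hsp90aa1 and Dnajc21 were highest in B13 and B10. Hsp90aa1 had means of 9.43 in B13 and 9.06 in B10, 8.02 in B3, 7.66 in B1, 7.26 in B9 and 7.15 in P91, the latter with the array at 4.72 (adjusted p = 0.0428, and 0.0660 over slice means). Its SD over the animal means, 0.95, was the largest of the members, followed by Hspb1 (0.93), Dnajc6 (0.83), Dnajb5 (0.78) and Dnajc21 (0.74). The call of Hsp90aa1 was lost without B9, B3, B13 or B10 (adjusted p = 0.155, 0.0784, 0.0976 and 0.109) and without the array with the fewest detected probes (0.0505), and with no detection filter (0.135). Dnajc21, which helps to mature the large ribosomal subunit, had means of 6.59 in B13, 6.30 in B10, 5.40 in B3, 5.21 in P91, 4.88 in B1 and 4.85 in B9 (adjusted p = 0.0175, and 0.0185 over slice means). It lost its call without B9 (0.116) or B13 (0.0511) and with neqc's background (0.056). Dnajc21 was detected on 15 arrays, and those that missed it came from B9, B1, B3 and B10, so its low values lie near background. The B10 array that missed it was the nonFR area of slice 2, at 5.20. Both genes were highest in the same pair of rats, the B10 arrays being dim, with mean signals of 84.2 to 126.9. The part of array brightness in this was not tested.

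The remaining calls were smaller. Dnaja2 had means of 10.01 in P91 and 10.09 in B9 and of 10.47 to 10.75 in the other 4 rats (adjusted p = 0.0365, and 0.158 over slice means), and lost its call without P91, B9 or B3 (0.120, 0.180 and 0.130). Dnajc17 was lowest in B13 at 4.72 and highest in B9 at 5.96 (adjusted p = 0.0377), and lost its call without P91, B9, B3 or B13 (0.0774, 0.175, 0.115 and 0.112). It also lost it over slice means (0.0851), with no background correction (0.0555), no detection filter (0.0624), the authors' processed values (0.0705) and neqc's background (0.117). Dnajc17 was detected on 16 arrays, and those that missed it came from B3, B13 and B10, so its low values lie near background. Dnajb5, which passed over slice means (adjusted p = 0.0213) but not over arrays (0.0981), was at 7.41 in B9 and 5.04 in B13. The nonFR array of B13 did not detect Dnajb5. Dnajc6 spanned 9.0 in P91 to 11.30 in B13 without passing (adjusted p = 0.0815). The brightest members, Dnaja1, Hspa9, Hspa5, Dnajb1 and Dnaja2, had SDs over the animal means of 0.29 to 0.47, and Dnaja2 alone of them passed.

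**Figure D3:**
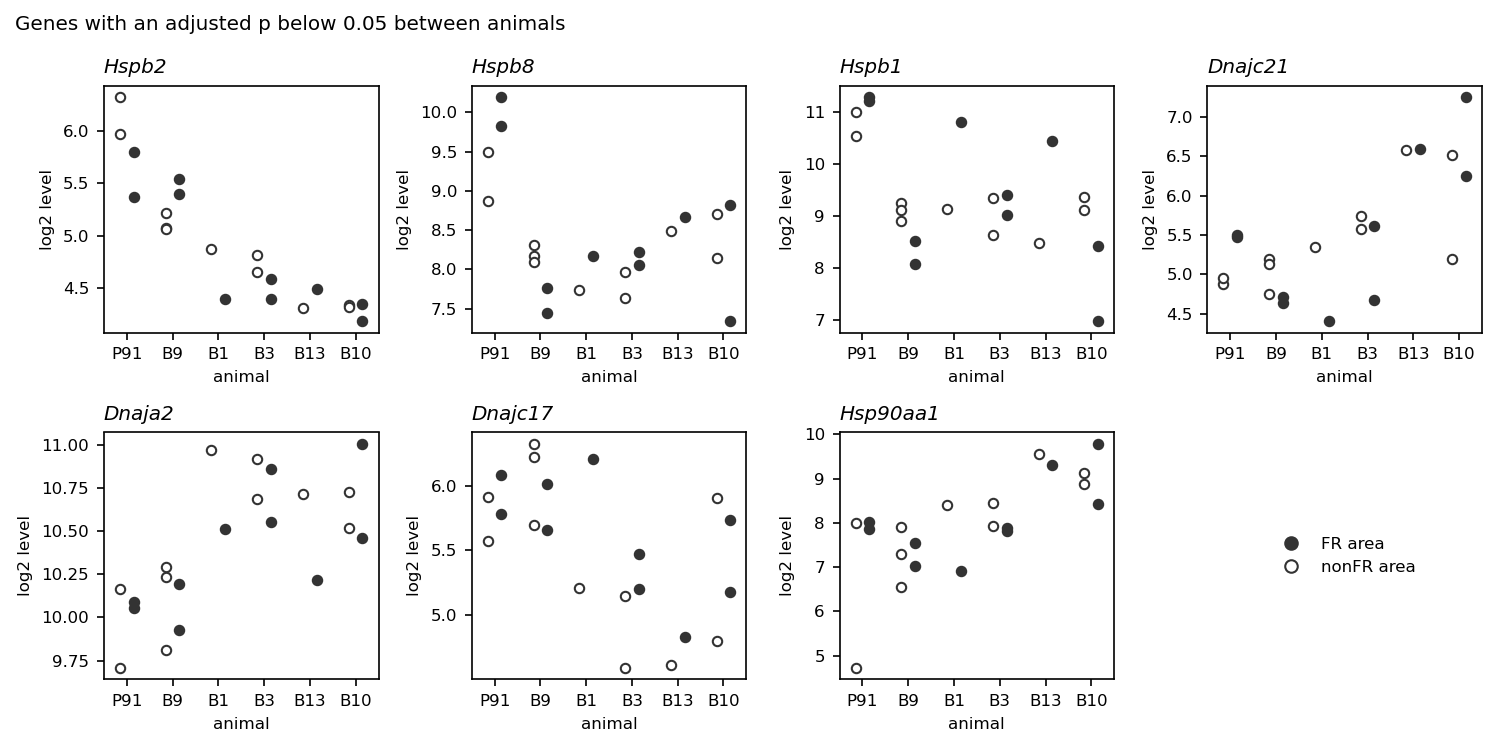
Log2 level of the 7 genes with an adjusted p below 0.05 between animals, one panel per gene, with 1 dot per array (filled for FR, open for nonFR areas) by animal. Hspb1 and Hspb8 are highest in P91, Hspb2 is highest in P91 and B9, and Hsp90aa1 and Dnajc21 are highest in B13 and B10. Vertical scales differ between panels.

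Other genes of the same pathways, in lists chosen with earlier results of these data known, were read beside the members. None of their tested genes passed the FR test: 0 of 18 cochaperones, 0 of 10 chaperonin and prefoldin genes, 0 of 21 endoplasmic reticulum genes, 0 of 6 mitochondrial genes and 0 of 12 other stress genes. The lowest unadjusted p-values in these lists belonged to Serp1 (-0.59 ± 0.37 log2, p = 0.127, limma), which stabilizes nascent membrane proteins, Pfdn6 (0.31 ± 0.21, p = 0.154), a prefoldin subunit, and Ppid (-0.35 ± 0.29, p = 0.236), an Hsp90-bound cyclophilin. Hsf2, the 1 heat shock factor tested, differed by -0.41 ± 0.32 (p = 0.212).

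Between rats, 5 of 18 cochaperones, 3 of 10 chaperonin and prefoldin genes, 5 of 21 endoplasmic reticulum genes, 1 of 6 mitochondrial genes and 8 of 12 other stress genes passed, beside the 18.8% of all features. Over slice means the counts were 3, 3, 2, 0 and 5 in the same order, beside 9.27% of all features. Hsf2 passed in both fits, with means from 6.24 in P91 to 9.03 in B13 (adjusted p = 0.0142, and 0.0173 over slice means). Of 9 immediate early genes, which neurons switch on with activity, 6 passed (4 over slice means), and their mean level was highest in P91 (10.15) and lowest in B10 (9.04). The other stress genes were highest in P91 as well (8.82) and lowest in B9 (7.60). P91, highest for Hspb1 and Hspb8, thus also had the highest mean of these lists. It was highest as well for the endoplasmic reticulum genes (8.55), the astrocyte markers (10.73) and the microglia markers (6.34). The remaining lists were highest in other rats. The part of any list in the Hspb1 and Hspb8 values was not tested. The means of the cochaperone, endoplasmic reticulum and mitochondrial lists spanned at most 0.40 log2 between rats, and that of the chaperonin and prefoldin list 0.47. Such means hide single genes that moved more, such as the cochaperone Fkbp5 (2.22 log2 over animal means) and the endoplasmic reticulum gene Sil1 (2.15).

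**Figure D4:**
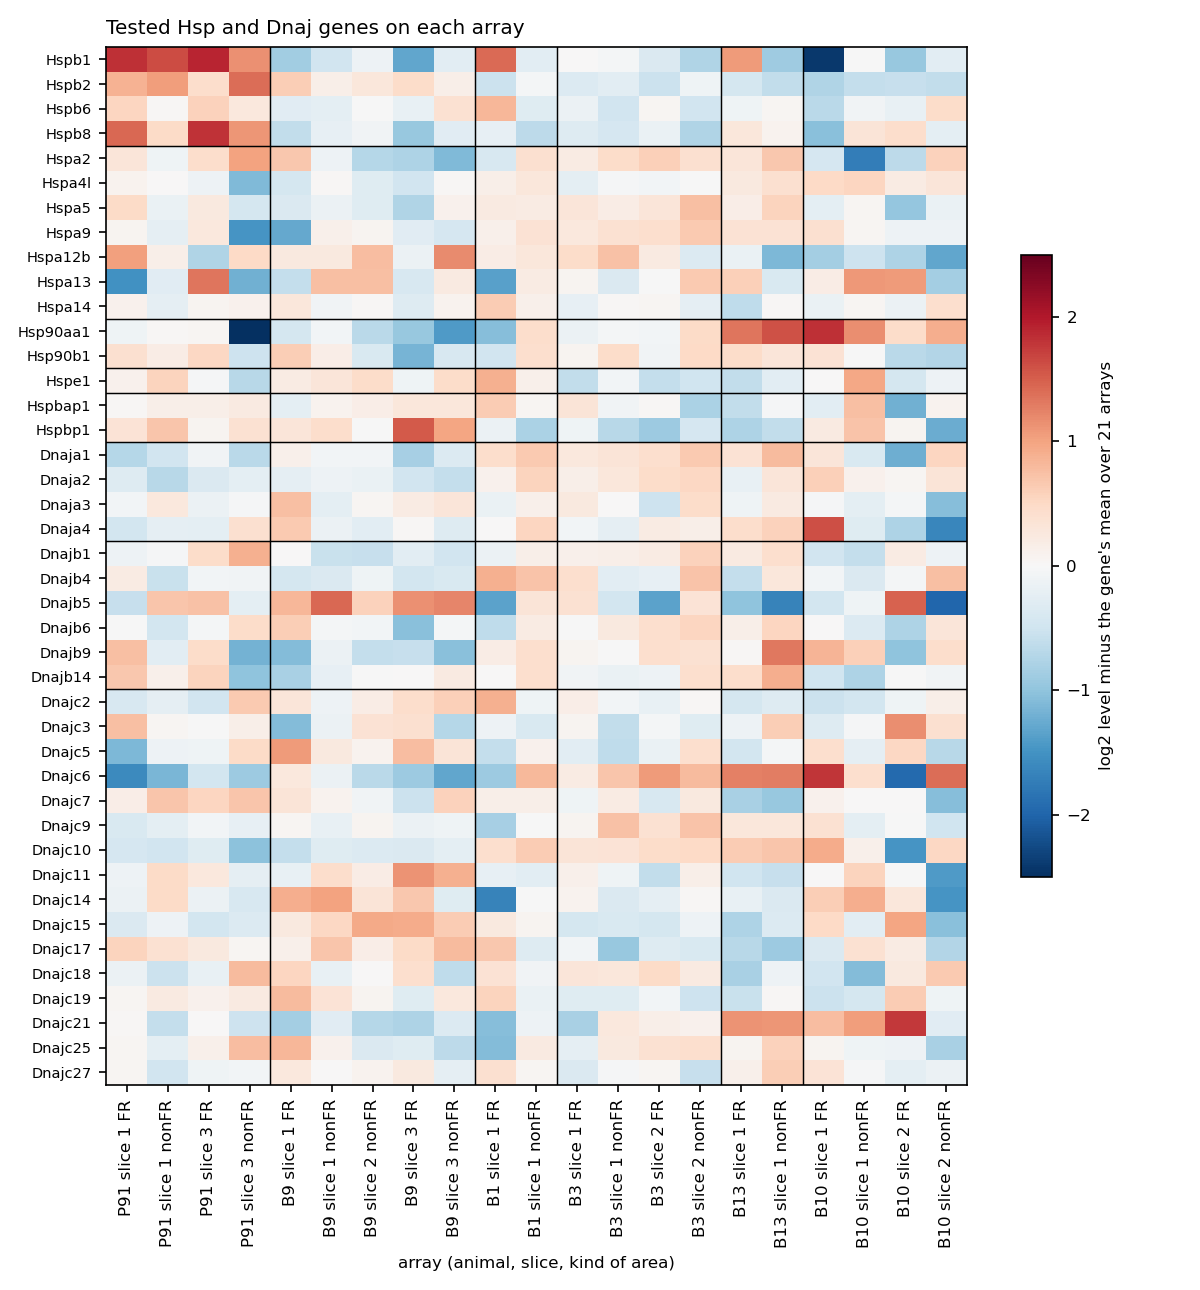
Level of each of the 42 tested genes (rows, by protein family) on each of the 21 arrays (columns, by animal and slice), as log2 level minus the gene's mean over the arrays, red above and blue below. Hspb1 and Hspb8 are red on the P91 arrays, Hsp90aa1 is red on the B13 and B10 arrays, and no row divides by kind of area.

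Slices numbered above 1 were also set against first slices within the 4 rats with more than 1 slice. No member passed (0 of 8211 features, 0%, lowest adjusted p 0.787), and at an unadjusted p below 0.05 there were 3 of 42 members (7.14%) and 493 features (6%): Hsp90b1 (-0.59 ± 0.21 log2, SE), Dnajc14 (-0.61 ± 0.25) and Hspe1 (-0.41 ± 0.18).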

How the data were processed

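Per the file headers, the deposited table pairs each array's average signal with a detection p-value, for 22523 probes. The signals were taken as linear intensity, as the deposited values showed. The second deposited table is a processed version by the authors, in which values look like log2, made with lumi 2.2 per the submitters' processing notes, with column medians of 6.73 to 6.76. Its log base and background step are not given in the sources used here, and it served only as an alternative. Arrays limit precision by their number, 10 FR and 11 nonFR.

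The 720 probes at 0 in every column were dropped. Background was removed with limma 3.58.1 (R 4.3.3) by the normal-exponential method, with an offset of 16, which compresses differences of dim genes. Quantile normalization on the linear scale and log2 followed. Because 617 probes had a detection p-value off the curve of their array (by more than 0.01 from the running median of 51 probes of like signal), the negative-control mean was taken as the signal at a detection p of 0.5 and its SD from the signals at 0.159 and 0.841, over the other probes. This gave SDs of 3.06 to 6.88, against 26.4 to 179.0 from all probes as neqc takes them. This departure from the planned neqc step was chosen after seeing the data, and neqc is an alternative.

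The filter asked for a detection p under 0.01 on 10 or more arrays (8223 probes), and the brightest probe per symbol was used, giving 8211 features. The 21 arrays were fitted with limma (lmFit, eBayes), animals entering as fixed blocks, and two-sided p-values were adjusted over all features by Benjamini-Hochberg, with a threshold of 0.05. Animals were compared by a moderated F test in the same fit. The block rests on the labels, which name the animal. Area deviations correlated by 0.33 on average within slices (0.0068 to 0.60 over pairs), by 0.33 across slices of the same rat and by -0.11 across rats, so they group by animal and not further by slice. The fits were tested on simulated data. Of the 62 genes, 61 were found in the RefSeq table of GRCr8. Symbols come from the platform annotation, which can be old.

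The members and the lists of other genes were chosen with earlier results of these data known. Values are given for a fixed panel of members where detected, for the 5 higher and 5 lower in FR areas of lowest p, the 5 of largest SD over animal means, the 5 brightest, the members called between animals, and up to 4 genes of lowest p from each other list. Bag3, Cryab and Gfap were set beside members after their values were seen. A planned relation of inducible Hsp70 with other members over animals was not run, since Hspa1b was detected on no array. No sample column was left unused (0). Alternatives covered background, normalization, detection filter, probe choice, blocks, array weights and leaving out each animal.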

Additional observations from a re-analysis of the deposited data

Results flagged for a closer look

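Over the 42 tested genes, 126 sets of values were examined for a sample far from the others: the 10 FR arrays, the 6 animal means and the 6 animal differences. 8 sets met Dixon's 95% criterion, where chance alone gives about 6.3 (1 in 20). On FR arrays, slice 3 of B9, the brightest array, was highest for Dnajc11 (9.06, the next at 8.21) and Hspbp1 (10.44, the next at 9.24). Slice 1 of B1 was lowest for Dnajc14 (4.33, the next at 5.79), and slice 1 of B9 was lowest for Hspa9 (10.04, the next at 11.03). That FR array of B1 did not detect Dnajc14. Among FR minus nonFR differences, B10 was highest for Dnajc15 (1.40 log2, the next at 0.17), P91 was highest for Hspa4l (0.53, the next at -0.072) and B13 was lowest for Dnajc27 (-0.49, the next at 0.13). In B10 Dnajc15 differed by 0.76 in slice 1 and by 2.05 in slice 2, whose nonFR array did not detect it. In P91 Hspa4l differed by 0.083 in slice 1 and by 0.97 in slice 3. Among animal means, B9 was highest for Dnajc5 (6.68, the next at 6.12).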

How the results depend on the processing

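The count of features past an adjusted p of 0.05 between FR and nonFR areas was 0 under each of the 19 alternatives by limma. At an unadjusted limma p below 0.05 it ran from 8 (of 4550 features detected on all arrays) to 461 (of 21722 with no detection filter). The count of members was 0 under each too, and the lowest adjusted p of a member was 0.997. With the slice as replicate block the member median was -0.015 log2, with the animal as random replicate block 0.013 and with no replicate block 0.0066, and no block changed a call. The member median, 0.0054 log2, ran from -0.061 (animal means) to 0.032 (without B1) over the alternatives, with the sign turned also without P91 (-0.059), without B10 (-0.054) and with probes detected on all arrays (-0.046), among others. Of 782 recomputed member differences 97 changed sign, and 14 of 42 members kept their sign throughout. For slices numbered above 1 against first slices the count of features was 0 under each alternative run. The count of features that differed between animals, 1544 of 8211, was 965 of 4550 with probes detected on all 21 arrays. It was 2112 without the array with the fewest detected probes, 3176 with array weights, 761 over slice means and 289 (without B9) to 2203 (without B10) with 1 animal left out. The members' count, 7 of 42, was 3 of 26 with probes detected on all arrays. It was 12 without the array with the fewest detected probes, 19 with array weights and 2 to 14 with 1 animal left out. With neqc's background from all probes, an alternative added after seeing the data, the counts were 1099 features and 5 members. Beyond fewer probes, arrays or animals tested, the cause was not tested. Genes near background, such as Hspb2, Hspe1 and Dnajc27, have compressed differences.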
